A study of Mus musculus with 11 samples.

Results

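The transcripts of the PAF1 complex were examined in mouse liver after treatment with activated alpha-2-macroglobulin (A2M). The 6 genes were Leo1, Paf1, Ctr9, Cdc73, Rtf1 and Wdr61, out of 24063 genes in the deposited tables, and all 6 were among the 12581 genes with enough reads to be tested. Leo1 was chosen by its adjusted p between PBS and A2M livers, which earlier results of these same libraries had placed past the threshold, so its difference is given as a description. The other 5 genes were chosen as partners of Leo1 in the complex and not for their values.

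Liver RNA came from 11 male athymic nude mice (labelled Cd1 nu/nu), of which 5 received PBS and 6 received A2M. All mice carried human tumour xenografts according to the study's methods, and A2M was human plasma protein activated with methylamine and given by repeated intraperitoneal injection. Athymic mice lack a functional thymus and so most T cells. The labels gave no age, time of day, date or batch, and whole liver was sampled, so that fewer cells of a type and less RNA per cell cannot be told apart.

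The PAF1 complex travels with RNA polymerase II along transcribed genes. It helps the polymerase to leave its pause near the start site and to pass nucleosomes, and it recruits the enzymes that ubiquitinate histone H2B, a mark that precedes methylation of histone H3. In the complex, Paf1 and Leo1 form a heterodimer, Ctr9 is the scaffold, Cdc73 (parafibromin, a tumour suppressor in human parathyroid) binds the polymerase, Wdr61 is a WD-repeat protein that also serves in the SKI complex of RNA decay, and Rtf1, which is loosely bound in mammals, stimulates H2B ubiquitination.

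Leo1 lies on chr9:75441524-75466432 on the plus strand (GRCm38, GENCODE annotation), with 10 exon blocks. The 300 bases around its RefSeq start site (chr9:75441274-75441573, plus strand, GRCm38.p6) are shown because the difference described below was that of a single gene of the complex. The capitals mark a match to the ROR response element (RORE), the element bound by the ROR and REV-ERB receptors of the circadian clock, from 67 to 57 bases before the start.
Leo1 promoter: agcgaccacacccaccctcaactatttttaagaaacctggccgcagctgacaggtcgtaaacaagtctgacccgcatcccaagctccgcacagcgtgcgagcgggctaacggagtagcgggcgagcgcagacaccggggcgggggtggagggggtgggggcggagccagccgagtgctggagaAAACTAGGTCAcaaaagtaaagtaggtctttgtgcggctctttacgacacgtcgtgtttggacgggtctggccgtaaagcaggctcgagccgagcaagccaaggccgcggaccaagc
This stretch had a GC content of 61.3% and 26 CpG. The RORE was searched on both strands after the sequence and the data had been seen, and it was found in 0.384% of 32851 promoters of the same length and in 24 of the 9478 tested genes with a promoter in the table (0.253%). The match contains the shorter motif AGGTCA, which 16.3% of all promoters held. Promoters were at hand for 4 of the 6 genes (Leo1, Paf1, Cdc73 and Rtf1), and the other 3 of these held no RORE. None of the 4 held the E-box CACGTG, found in 7.15% of all promoters. The paired heat shock motif GAANNTTC, found in 7.86% of all promoters, was in that of Rtf1. Such a match is a description of letters and no evidence of binding.

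Leo1 transcripts were lower in every A2M liver than in any PBS liver. In RPKM, the reads scaled to exon length and library total that the authors deposited, PBS livers 1 to 5 had 7.08, 6.62, 6.88, 6.57 and 5.88, and A2M livers 1 to 6 had 3.70, 4.13, 3.68, 4.25, 4.01 and 3.81. The lowest PBS liver thus stood above the highest A2M liver. The means were 6.61 ± 0.453 (SD, n = 5) and 3.93 ± 0.237 (SD, n = 6), a difference of -40.5%. These levels rested on 213 to 668 reads per liver, and counting error alone gave an SD of 3.87 to 6.85% per liver, beside a coefficient of variation of 6.85% among PBS livers and 6.02% among A2M livers. In the edgeR quasi-likelihood fit over all genes, the log2 fold change of Leo1 was -0.74 (SE 0.0955), or 1.67-fold lower (95% interval of the log2 fold change -0.94 to -0.53). These values chose the gene, as did its adjusted p of 0.00418 against a threshold of 0.01. The genes nearest the threshold were Clpx (0.00904) and Cyp4a32 (0.00960) inside it and Arntl (0.0108) and Cyp2c39 (0.0117) outside it.

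Leo1 was the 1 gene of the 6 past the threshold, where 0.215% of all tested genes (27 of 12581) were, 0.135% in the lower direction (17) and 0.0795% in the higher (10). It was also the 1 gene of the 6 whose groups did not overlap, as held for 2.59% of tested genes by CPM, 1.58% with A2M livers lower. With each liver left out in turn the log2 fold change stayed between -0.77 and -0.70, while the adjusted p ran from 0.00693 to 0.0155. It passed in 4 of the 11 fits, those without PBS liver 5 or A2M liver 1, 4 or 6. It missed the threshold without PBS liver 1 (0.0155), 2 (0.0107), 3 (0.0132) or 4 (0.0104) and without A2M liver 2 (0.0124), 3 (0.0153) or 5 (0.0134).

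**Figure D1:**
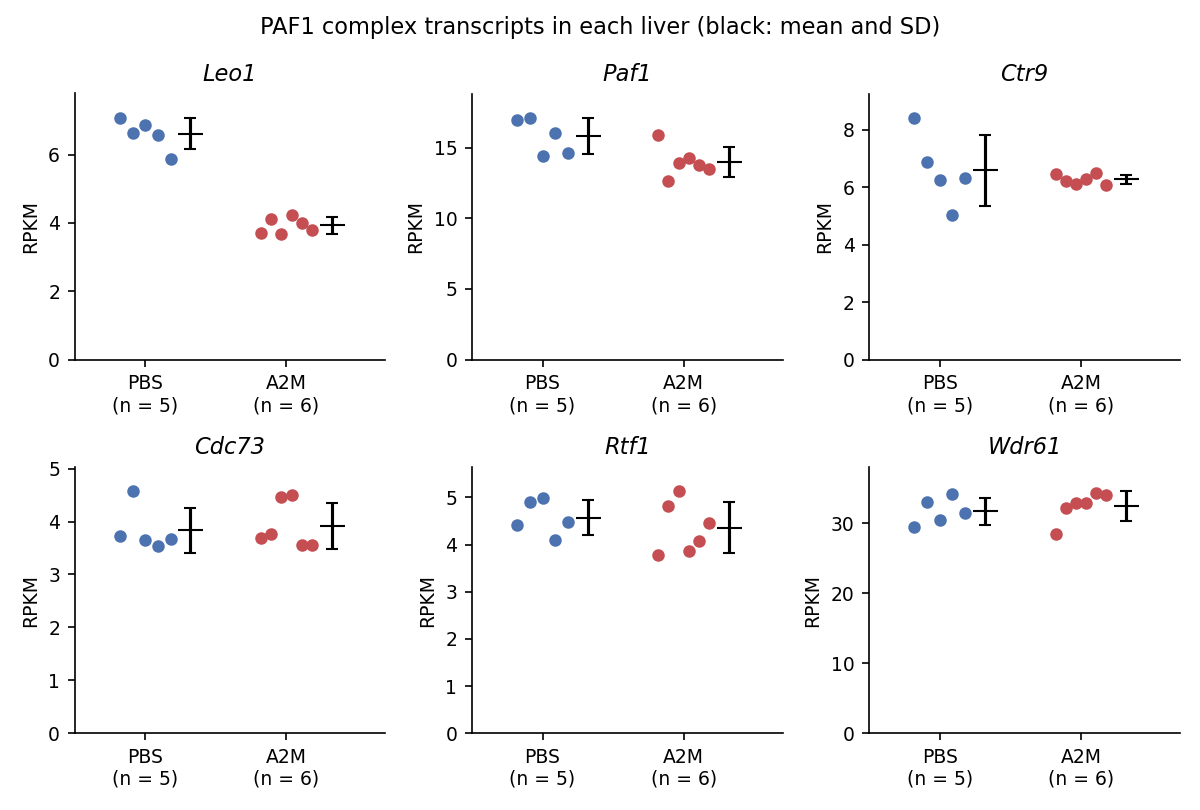
RPKM of the 6 genes of the PAF1 complex in each of 5 PBS livers (blue) and 6 A2M livers (red), with the mean and SD in black and each axis starting at 0. Leo1 ran from 5.88 to 7.08 in PBS and from 3.68 to 4.25 in A2M, and the points of the groups overlap for the other 5 genes.

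Paf1, the subunit that pairs with Leo1, had 17.0, 17.1, 14.4, 16.0 and 14.6 RPKM in PBS livers and 15.9, 12.6, 13.9, 14.2, 13.8 and 13.4 in A2M livers. A2M liver 1 stood among the PBS livers, so that the groups overlapped, and the other 5 A2M livers were below all PBS livers. The means were 15.8 ± 1.28 (SD, n = 5) and 14.0 ± 1.08 (SD, n = 6). Its log2 fold change was -0.16 (SE 0.0808, 95% interval -0.34 to 0.01, edgeR adjusted p = 0.386). The -0.74 of Leo1 lay outside this interval, but that value chose Leo1, so the placement is a description. With each liver left out, the log2 fold change of Paf1 ran from -0.20 to -0.13. It was -0.20 without A2M liver 1 (edgeR quasi-likelihood unadjusted p 0.0217, adjusted p = 0.215).

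Ctr9, the scaffold, had 8.43, 6.89, 6.26, 5.04 and 6.33 RPKM in PBS livers and 6.45, 6.23, 6.11, 6.31, 6.48 and 6.09 in A2M livers. PBS liver 1 was the highest and PBS liver 4 the lowest of all 11, and the A2M livers lay close together between them. PBS liver 1 also had the highest sum of 5 cholangiocyte markers, 152 RPKM. The median of this sum was 36.9 in PBS livers, and its highest value in A2M livers was 27.2. Spp1 carried most of it, with a mean of 52.4 RPKM in PBS livers, where Sox9, Krt19, Krt7 and Epcam had 1.59 or less. Spp1 and Sox9 had lower means in A2M livers (17.2 and 0.813 RPKM). Krt19, Krt7 and Epcam had higher ones, 0.861, 0.557 and 0.311, beside 0.751, 0.514 and 0.290 in PBS livers. None of the 5 markers passed the threshold. The part of these markers in the Ctr9 level of PBS liver 1 was not tested. The coefficient of variation was 18.6% in PBS and 2.64% in A2M. For Ctr9 the log2 fold change was -0.04 (SE 0.0959, 95% interval -0.25 to 0.16, edgeR adjusted p = 0.884), and it was 0.04 without PBS liver 1.

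Cdc73, the polymerase-binding subunit, had 3.73, 4.57, 3.65, 3.54 and 3.67 RPKM in PBS livers and 3.68, 3.77, 4.46, 4.50, 3.55 and 3.56 in A2M livers. PBS liver 2 and A2M livers 3 and 4 were high and the other 8 livers stood between 3.54 and 3.77. In the fit, Cdc73 had a log2 fold change of 0.05 (SE 0.0980, 95% interval -0.16 to 0.26, edgeR adjusted p = 0.861). The GENCODE exons of Cdc73 (17613 bases in all) share 679 bases with B3galt2 on the opposite strand, and the library kit did not keep the strand. The counts rest on 2678 bases of RefSeq exon, and the shared bases may lie outside these. B3galt2 had 0.248 ± 0.542 RPKM (SD, n = 5) in PBS and 0.00739 ± 0.00762 RPKM (SD, n = 6) in A2M. In PBS livers its SD was thus larger than its mean. The part of B3galt2 reads in the Cdc73 values was not tested.

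Rtf1, which stimulates H2B ubiquitination, had 4.40, 4.90, 4.98, 4.09 and 4.47 RPKM in PBS livers and 3.78, 4.81, 5.13, 3.87, 4.07 and 4.47 in A2M livers. The highest and the lowest of the 11 were both A2M livers. The fitted difference on the log2 scale was -0.05 (SE 0.10, 95% interval -0.27 to 0.16, edgeR adjusted p = 0.859).

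Wdr61, the subunit shared with the SKI complex, was the most abundant, with 29.5, 33.0, 30.5, 34.2 and 31.4 RPKM in PBS livers and 28.4, 32.1, 32.9, 32.9, 34.3 and 34.1 in A2M livers. A2M liver 1 was the lowest of all 11 and the other A2M livers lay in the upper part of the PBS range or just above it. On the log2 scale the fold change was 0.05 (SE 0.0873, 95% interval -0.14 to 0.23, edgeR adjusted p = 0.861). In the GENCODE annotation its exons (4669 bases in all) share 1581 bases with Dnaja4 on the opposite strand. The authors' counts rest on 1331 bases of RefSeq exon, so the shared bases cannot all have been counted, and how many were was not determined. Dnaja4, a co-chaperone gene, had 3.33 ± 0.400 RPKM (SD, n = 5) in PBS and 3.77 ± 1.25 RPKM (SD, n = 6) in A2M.

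None of the 5 partners passed the threshold. The lower bounds of their intervals ran from -0.34 for Paf1 to -0.14 for Wdr61, all nearer to 0 than the upper bound of Leo1 (-0.53). The fold change of Leo1 is the value that chose it, so this placement is a description. Changes inside these intervals remain possible for the 5 partners. The bounds are not the smallest changes that the test could detect with 5 and 6 livers.

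**Figure D2:**
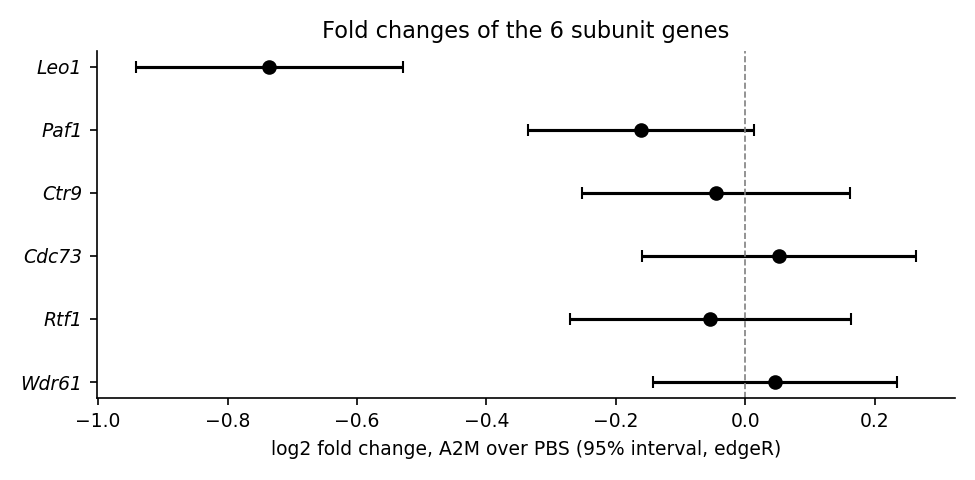
Log2 fold change of each subunit gene, A2M over PBS, with its 95% interval from the edgeR fit (5 PBS and 6 A2M livers). The interval of Leo1 (-0.94 to -0.53) lies below those of the other 5 genes, each of which spans 0.

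The place of Leo1 within the complex was next described in each liver, which removes any error of scaling between libraries. The Leo1 values that chose the gene enter every one of these measures. A separation of the groups is therefore a description and no further support. Leo1 made up 9.56 ± 0.634% (SD, n = 5) of the summed RPKM of the 6 genes in PBS livers, with a range from 8.86 to 10.3%, and 6.05 ± 0.355% (SD, n = 6) in A2M livers, with a range from 5.55 to 6.48%. The summed RPKM of the other 5 was 62.5 ± 2.63 in PBS and 61.0 ± 1.69 in A2M. On the log2 scale, Leo1 relative to that sum differed by -0.71. The ratio of Leo1 to Paf1 was 0.419 ± 0.0350 in PBS and 0.283 ± 0.0318 in A2M, and that of Leo1 to Ctr9 was 1.03 ± 0.180 and 0.625 ± 0.0376.

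**Figure D3:**
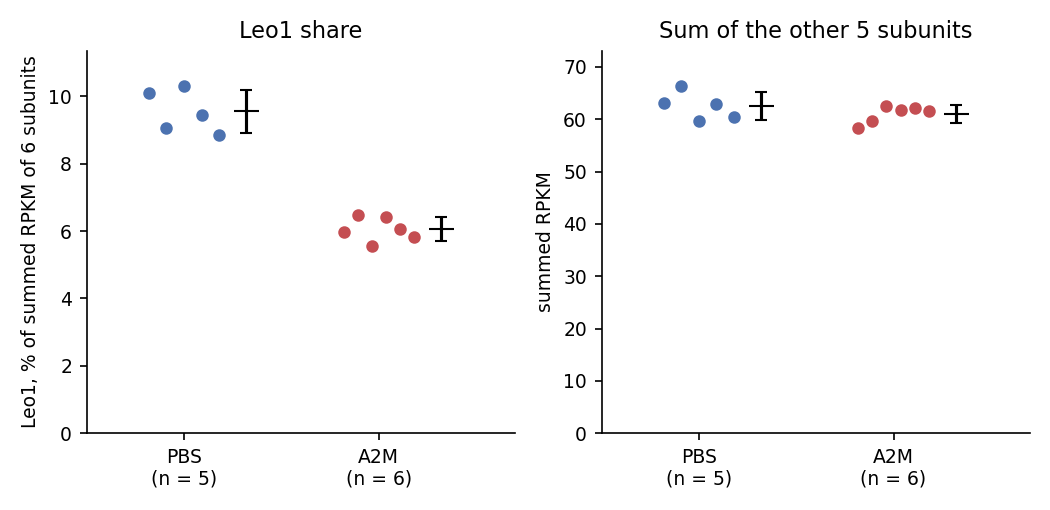
Left, Leo1 as a percentage of the summed RPKM of the 6 genes in each liver. Right, the summed RPKM of the other 5 genes. Points are livers and black marks the mean and SD. The share ran from 8.86 to 10.3% in PBS and from 5.55 to 6.48% in A2M, while the sums overlapped. The share contains the Leo1 values that chose the gene.

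By RPKM, a level per length of exon, Wdr61 stood above Paf1 and Paf1 above Ctr9 in all 11 livers. In PBS livers Leo1 was at the level of Ctr9, with Ctr9 higher in 3 of 5 livers, and was above Rtf1 and Cdc73 in 5 of 5. In A2M livers Leo1 was below Ctr9 in 6 of 6, above Rtf1 in 1 of 6 and above Cdc73 in 4 of 6. In A2M livers the mean ratio of Leo1 to Rtf1 (4.35 ± 0.541 RPKM) was 0.915 and that of Leo1 to Cdc73 (3.92 ± 0.440 RPKM) was 1.01. These differences within livers were not tested. Rtf1 was above Cdc73 in 10 of 11 livers.

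The subunits were also compared among livers of the same group. After removal of the group means, the Pearson correlation of log2 CPM with Leo1 over 11 livers was 0.10 for Paf1, 0.09 for Ctr9, -0.01 for Cdc73, 0.05 for Rtf1 and 0.43 for Wdr61. Between the other subunits it ran from -0.74 (Paf1 and Rtf1) and -0.68 (Ctr9 and Wdr61) to 0.26 (Rtf1 and Wdr61). The points share library and scaling, and the values are given as a description.

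The genes that act with the PAF1 complex were taken from 10 lists with 104 genes, of which 103 were tested. These lists were chosen with earlier results of these data known, so their counts are a description. None passed the threshold in the edgeR quasi-likelihood test, and 13 had an unadjusted p under 0.05 (12.6%, beside 14.7% of all tested genes). Of these, 10 were lower and 3 higher, where 8.32% and 6.38% of all tested genes were. At an adjusted p under 0.05 there were 2, Nelfa and Setd1a, beside 1.22% of all tested genes. The same 2 passed the threshold of 0.01 in DESeq2, which called 2.28% of all genes, and in the edgeR exact test, which called 1.56%. Negative log2 fold changes were found for 66 and positive ones for 37, beside 51.1% negative over all genes, with a median of -0.05 beside -0.01.

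The pausing factors DSIF and NELF hold the polymerase near the start site. NELF is displaced when the PAF1 complex binds, while DSIF stays on the polymerase and then favours elongation. Genes of this list had 6 of 6 negative log2 fold changes with a median of -0.18, beside 51.1% negative over all tested genes. Nelfa, the subunit of NELF that contacts the polymerase, had 6.22, 5.65, 5.90, 5.50 and 5.13 RPKM in PBS livers and 3.14, 3.52, 3.01, 4.08, 3.65 and 3.94 in A2M livers. The groups did not overlap. Nelfa had a log2 fold change of -0.66 (SE 0.113), and its adjusted p was 0.0180 in the edgeR quasi-likelihood test, outside the threshold, 0.000495 in the edgeR exact test and 3.3e-05 in DESeq2. Nelfcd, another NELF subunit, also had groups that did not overlap, with 13.2 ± 1.04 RPKM (SD, n = 5) in PBS and 10.1 ± 0.793 RPKM (SD, n = 6) in A2M (edgeR adjusted p = 0.0887).

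The next list held P-TEFb, the kinase that releases paused polymerase, and its inhibitory 7SK particle. Here 7 of 8 log2 fold changes were negative with a median of -0.26, beside 51.1% negative over all tested genes. Hexim1, the inhibitor of the kinase, had a value of -0.28 (edgeR adjusted p = 0.273) and Cdk9, the kinase itself, -0.25 (0.370). In the super elongation complex 7 of 11 were positive with a median of 0.08. Among elongation factors and histone chaperones 6 of 10 were positive with a median of 0.02, the most negative being Tcea2, a low-level TFIIS gene, with -0.97 (edgeR adjusted p = 0.143).

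The list for H2B ubiquitination, the step that the complex recruits, had 7 of 9 tested genes negative, with a median of -0.03 and no unadjusted p under 0.05. Rnf40, part of the ubiquitin ligase, showed -0.12 on the log2 scale (edgeR adjusted p = 0.565), and Usp22, which removes the mark, had 0.21 (0.361). Among the H3 methyltransferase subunits that act after this mark 9 of 13 were negative with a median of -0.19, beside 51.1% negative over all tested genes. Of the 13, 5 had an unadjusted p under 0.05 in the edgeR quasi-likelihood test, all lower, where 8.32% of all tested genes were lower. Setd1a, a catalytic subunit, had 4.49 ± 0.485 RPKM (SD, n = 5) in PBS and 2.95 ± 0.549 RPKM (SD, n = 6) in A2M, a log2 fold change of -0.59 (SE 0.126, adjusted p 0.0430 in the edgeR quasi-likelihood test, 0.00459 in the exact test and 0.00163 in DESeq2). Its groups did not overlap, nor did those of Ash2l, a core subunit of these enzymes, with 5.11 ± 0.251 RPKM (SD, n = 5) and 4.27 ± 0.241 RPKM (SD, n = 6) (edgeR adjusted p = 0.155). Nelfa, Nelfcd, Setd1a and Ash2l were the 4 of the 103 with groups that did not overlap, beside 2.59% of all tested genes.

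In the 3 remaining nuclear lists the medians were -0.04 for RNA polymerase II subunits (5 of 12 positive), -0.03 for kinases and phosphatases of its C-terminal domain (4 of 14 positive) and -0.07 for cleavage and polyadenylation factors (6 of 17 positive). The lowest unadjusted p in these belonged to Polr2h, a polymerase subunit, at 0.45 on the log2 scale (edgeR adjusted p = 0.218), and Cpsf7, a cleavage factor, with -0.41 (0.119). The 3 genes of the SKI complex apart from Wdr61 included Ttc37 with 0.32 (0.233) and Skiv2l with -0.13 (0.443).

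**Figure D4:**
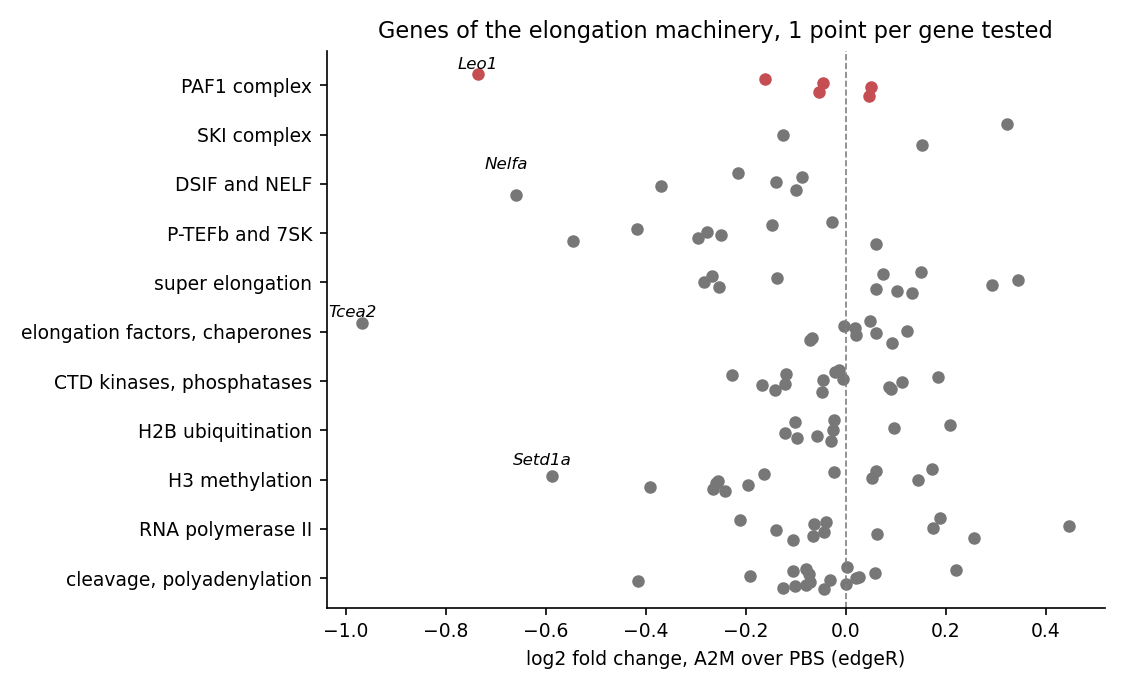
Log2 fold changes, A2M over PBS, of the 6 subunit genes (red) and the 103 tested genes of 10 lists of the elongation machinery (grey), 1 point per gene. Leo1 lies at -0.74, Nelfa at -0.66 and Setd1a at -0.59, Tcea2 is lowest at -0.97, and medians of the lists lie between -0.26 and 0.15.

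Over the 11 livers, the gene whose log2 CPM followed Leo1 most closely among 12580 others was Nelfa, with a Pearson r of 0.97 and a Spearman rho of 0.96. With the group means removed, r was 0.82, at the 99.7th percentile of all genes, where the highest was 0.94. The pooled r that picked Nelfa contains this part within the groups, so the percentile is not independent of the choice. The next were Tubb2b (0.96, and 0.59 without group means) and Tubb2a (0.96 and 0.55), tubulin genes so close in sequence that reads can fit both, 4930447K03Rik (0.95 and 0.35) and Slc30a10 (0.95 and 0.39), a manganese exporter. The lowest r belonged to Narf (-0.94, and -0.56 without group means), Adipor1, an adiponectin receptor (-0.94 and -0.64), Stk35, a kinase (-0.94 and -0.68), Mcl1, which protects cells from apoptosis (-0.94 and -0.27) and Rnf19b, a ubiquitin ligase (-0.92 and -0.02). Of these 10 genes 7 were past the threshold between the groups, so that the pooled r carries the group difference, and the values are a description over 11 livers that share library and scaling.

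**Figure D5:**
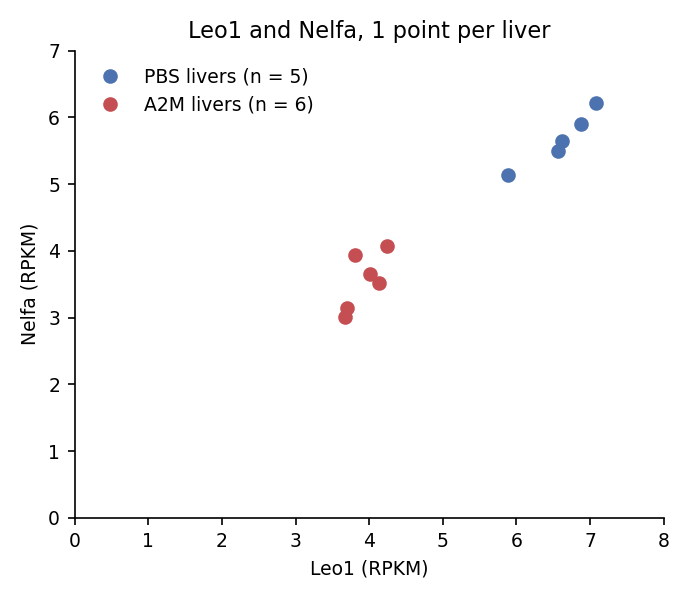
RPKM of Nelfa against RPKM of Leo1, 1 point per liver, in 5 PBS livers (blue) and 6 A2M livers (red), with both axes starting at 0. The PBS livers lie at 5.13 to 6.22 for Nelfa and the A2M livers at 3.01 to 4.08, and within each group livers higher in Leo1 tend to be higher in Nelfa.

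The neighbours of Leo1 on chromosome 9 were measured to see whether the difference reached beyond the gene. Mapk6, a kinase gene 31519 bases away, had a log2 fold change of 0.06 (SE 0.0978, edgeR adjusted p = 0.839), and Tmod3, an actin-capping gene 31275 bases away on the other side, 0.01 (SE 0.127, edgeR adjusted p = 0.976). No exon of Leo1 overlapped an exon of another gene in the annotation.

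Libraries held 31513210 to 46381692 counted reads in PBS and 23545121 to 37357134 in A2M. Hepatocyte markers were high in all, with summed RPKM from 76821 to 108596 in PBS and from 83859 to 98980 in A2M, apart from Ass1, which was listed at 0 in every liver. PBS liver 2 stood apart by adrenal markers (372 summed RPKM, and 12.5 at most in A2M livers) and fat markers (712, and 7.53 at most). A2M liver 1 had the highest sum of Kupffer cell markers (153, with a range from 26.7 to 72.1 in PBS livers). This sum was above all PBS livers in 2 A2M livers, with medians of 34.0 in PBS and 49.6 in A2M. A2M liver 1 also had the highest sum of 7 lymphocyte markers (7.08, and 1.90 at most in PBS livers). The medians of that sum were 1.01 in PBS and 0.780 in A2M. All 8 Kupffer markers had positive log2 fold changes and none passed the threshold. Leo1 was 6.62 RPKM in PBS liver 2 and 3.70 in A2M liver 1, inside the range of its group in both. Without these 2 livers, an alternative added after the data were seen, its log2 fold change was -0.75 and its adjusted p 0.0194. The part of the marker genes in the difference of Leo1 was otherwise not tested.

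Of 12 dusk-phased clock genes 12 had positive log2 fold changes, with a median of 1.97, and of 5 dawn-phased ones 5 had negative values, with a median of -1.76. Over all tested genes 51.1% were negative. The clock lists were chosen with earlier results of these data known, so their directions and the score built from them are a description. In each list 1 gene passed the threshold of the edgeR quasi-likelihood test, where 0.215% of all tested genes did. A clock score per liver, the mean z of the dusk-phased genes minus that of the dawn-phased ones, was -2.67, -1.45, -2.73, -0.39 and -0.31 in PBS livers and 1.24, 1.51, 1.16, 1.71, 1.29 and 0.66 in A2M livers, so the score and the treatment did not overlap. With this score as a covariate the log2 fold change of Leo1 was -0.67 (SE 0.206, unadjusted p 0.00676, edgeR adjusted p = 1.00), and no gene passed the threshold in that fit, where 401 had an unadjusted p under 0.05. For Nelfa it was -0.53. Treatment and clock state cannot be told apart in these groups.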

How the data were processed

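Liver RNA of 5 PBS and 6 A2M mice was compared. Per the methods and the submitters' processing notes, the authors made TruSeq RNA v2 libraries without strand information, extracted reads with bcl2fastq 1.8.4, mapped them to mm10 with TopHat2 and counted them per RefSeq gene with featureCounts. The deposited read counts were whole numbers and not normalized. The deposited RPM values were the counts scaled to 1 common total per library (checked within a tolerance of 1e-06), and the RPKM values the authors deposited were divided by exon length as well. Every pair of libraries differed by more than sampling noise (smallest chi-square per degree of freedom 34.7), so each counted as 1 replicate. The labels do not say more of their independence than that they are separate livers. A p-value here sets the group difference against the spread between these samples within the groups.

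Counts were tested with edgeR 4.0.16 in R 4.3.3 (TMM, filterByExpr by group, quasi-likelihood F-test, Benjamini-Hochberg adjustment over 12581 genes, threshold 0.01 as in the study, which used edgeR and DESeq). Fold changes are A2M over PBS. Log2 CPM used a prior count of 2. The script was tested on simulated data. Alternatives were RLE size factors, library totals, no low-count filter, robust dispersion, the edgeR exact test, DESeq2 1.42.0, an adjusted p under 0.05, the clock score as a covariate, each liver left out, and, added after the data were seen, 2 livers left out together. Sequences are from RefSeq promoters (GRCm38.p6). The 6 genes, the related lists and the clock lists were chosen with earlier results of these data known. Genes named were the 6 subunits, up to 2 genes of smallest p per list, the 5 most and the 5 least correlated with Leo1, and neighbours or exon overlaps. Counting error covers reads only. Replicate numbers follow the order of deposit and pair no livers.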

Additional observations from a re-analysis of the deposited data

Results flagged for a closer look

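Of 18 groups of values tested for a liver far from the rest, 2 had one, where chance gives about 1 in 20. Cdc73 was 4.57 RPKM in PBS liver 2, far above the other 4 PBS livers, and this liver also held the high adrenal and fat markers. Wdr61 was 28.4 RPKM in A2M liver 1, below the other 5 A2M livers. The gap to the next value was 0.632 of the range among A2M livers, just past the limit of 0.625. PBS liver 1 had 29.5 RPKM. A2M liver 1 also held the highest sum of Kupffer markers. The part of those markers in either value was not tested.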

How the results depend on the processing

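The log2 fold change of Leo1 was negative under every alternative run. It stayed past the threshold with RLE size factors, library totals, no filter, robust dispersion, the exact test and DESeq2, and missed it with the clock score as a covariate (-0.67), without PBS liver 2 and A2M liver 6 (-0.76) and without PBS liver 2 and A2M liver 1 (-0.75). With each liver left out it ran from -0.77 to -0.70. The count of subunits past the threshold, 1 in the report, became 0 in those 3 settings and 0 to 1 with each liver left out. The count over all genes, 27 in the report, was 154 at an adjusted p under 0.05, 196 with the exact test, 284 with DESeq2, 0 with the clock score, 10 without PBS liver 2 and A2M liver 1, and 6 to 35 with each liver left out (7, 7, 6 and 17 without PBS livers 1, 2, 3 and 4, and 17, 8, 6, 14 and 8 without A2M livers 1 to 5). The related lists went from 0 genes to 2 with the exact test, 2 with DESeq2 and 2 at an adjusted p under 0.05, and stayed at 0 to 0 with each liver left out. None of the 100 fits of the other 5 subunits passed the threshold, and 5 turned in sign. With the clock score these were Ctr9 (0.26), Cdc73 (-0.050), Rtf1 (0.062) and Wdr61 (-0.14). Without PBS liver 1 it was Ctr9 (0.040, within a range of -0.10 to 0.040 over single livers left out). The cause was not tested. No paired analysis was possible because the labels give the groups no shared replicate numbers. Depth limits Leo1 to 213 to 668 reads per liver.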

Other observations

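Of the 14 genes past the threshold in the lower direction that had a promoter in the table, Leo1 was the 1 with a RORE match. Of the 5 dawn-phased clock genes 1 had such a match, beside 0.253% of tested genes. The RORE was searched after the sequence of Leo1 and the data had been seen. Its count among these genes is therefore a description and no evidence of a shared element. The promoters of Cdc73 (GC content 79.7%, 54 CpG) and Rtf1 (71.3%, 38 CpG) were richer in GC than that of Leo1 and that of Paf1 (54.0%, 14 CpG) was poorer. The dispersion of Paf1 between livers was low, with a biological coefficient of variation of 0.118 at the 1.99th percentile of tested genes, and that of Leo1 was 0.135 at the 10.5th.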
